A study of Mus musculus with 6 samples.

Results

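The Cyp2d subfamily of cytochrome P450 genes was described in livers of Mettl3 flox/flox mice and of mice labelled as hepatocyte-specific Mettl3 knockouts. The 6 genes are Cyp2d9, Cyp2d10, Cyp2d22, Cyp2d26, Cyp2d34 and Cyp2d40, taken by gene name from a deposited table of 54086 features. Cytochromes P450 are heme enzymes of the endoplasmic reticulum that insert an oxygen atom into drugs, steroids, fatty acids and other lipophilic compounds, with electrons passed on by NADPH-cytochrome P450 reductase. Humans carry a single active gene of the subfamily, CYP2D6, which clears many prescribed drugs, whereas mice carry a cluster of Cyp2d genes. In mice Cyp2d9, a testosterone hydroxylase, is a textbook example of a liver gene that is more active in males, and Cyp2d22 is often treated as the counterpart of human CYP2D6.

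Livers came from Mettl3 flox/flox mice (n = 3) and from mice with a hepatocyte-specific Mettl3 knockout, abbreviated HKO (n = 3). All were 8 weeks old and fed normal chow. A floxed allele carries recombination sites around part of the gene and keeps working until Cre recombinase is present, so flox/flox mice are the controls. Mettl3 is the catalytic subunit of the complex that writes N6-methyladenosine on mRNA. The sources used here name neither the Cre driver, nor the deleted exons, nor the sex of the mice. They also do not say that every library came from its own mouse, so the p-values cover the spread among libraries, which may be technical.

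Poly(A) RNA of whole liver was sequenced, and the deposited unit is FPKM, which divides the fragments of a gene by its length and by a depth factor. Values per library are given in the order of replicates 1, 2 and 3, and flox/flox and HKO libraries are also called controls and knockouts. Reads rebuilt from the FPKM came to between 16529358 and 18556076 per library. The deposited scaling follows size factors of 0.858 to 0.892 in controls and 1.06 to 1.30 in knockouts, so every level below depends on it and the scalings are compared near the end. Differences are HKO minus flox/flox on the log2(FPKM + 1) scale from limma, which understates the change of low genes, and a gene was called at an adjusted p under 0.05 over 11086 tested features. Mettl3 itself was at 1.88, 2.17 and 1.98 FPKM in the controls and at 2.45, 2.14 and 2.06 FPKM in the knockouts (log2 difference 0.09, limma adjusted p = 0.582). This gene-level value takes in every exon and every cell type of the liver, so it does not check the labels.

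The 6 genes lie within 424 kb of chromosome 15 in GRCm38.p6. Cyp2d9 (chr15:82433437-82456845) is on the plus strand, and Cyp2d22 (chr15:82370527-82380260), Cyp2d10 (chr15:82402846-82407195), Cyp2d34 (chr15:82615965-82620946), Cyp2d40 (chr15:82759833-82764183) and Cyp2d26 (chr15:82790101-82794294) are on the minus strand. All are annotated as protein coding. RefSeq promoter windows of GRCm38.p6, 250 bases before to 50 after the start, matched 4 of the 6: Cyp2d9, Cyp2d10, Cyp2d26 and Cyp2d40.

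Those promoters carry a shared stretch upstream of the start, shown here because the genes that fell most and least among the called members share it. The first capitals mark an element of 13 bases made of an AGNACA hexamer, a single A and an AGNGCA hexamer, and the second capitals mark a TATA-type box. The promoter of Cyp2d11, a neighbour that liver barely expressed in both genotypes, is set beside them. Each line gives 100 bases, 5′ to 3′ on the strand of the gene, from RefSeq, GRCm38.p6.
Cyp2d9 (chr15:82452293-82452392, plus strand): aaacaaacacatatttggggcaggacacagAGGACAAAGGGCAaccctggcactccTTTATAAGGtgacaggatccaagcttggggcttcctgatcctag
Cyp2d10 (chr15:82407182-82407281, minus strand): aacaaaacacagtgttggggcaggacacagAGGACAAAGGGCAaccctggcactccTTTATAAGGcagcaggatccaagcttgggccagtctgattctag
Cyp2d40 (chr15:82764170-82764269, minus strand): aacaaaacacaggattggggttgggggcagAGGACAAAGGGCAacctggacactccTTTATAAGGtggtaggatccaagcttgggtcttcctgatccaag
Cyp2d26 (chr15:82794238-82794337, minus strand): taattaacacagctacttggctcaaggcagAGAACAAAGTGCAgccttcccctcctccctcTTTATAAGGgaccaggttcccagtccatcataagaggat
Cyp2d11 (chr15:82394022-82394121, minus strand): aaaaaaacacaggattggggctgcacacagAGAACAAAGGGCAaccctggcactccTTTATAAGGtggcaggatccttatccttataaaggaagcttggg

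From Cyp2d9 the 100 bases differed at 13 positions in Cyp2d10, and the identity of aligned bases was 87.0% for Cyp2d10, 85.9% for Cyp2d40 and 81.2% for Cyp2d26. Cyp2d9, Cyp2d10 and Cyp2d40 had the same 13-base element. Counted from 1 at the 5′ end of that element, Cyp2d26 differed from Cyp2d9 by G3A and G10T, and Cyp2d11 by G3A. The element began 26 bases upstream of the TATA-type box in Cyp2d9, Cyp2d10, Cyp2d40 and Cyp2d11, and 31 bases upstream of it in Cyp2d26. It began 54 bases before the RefSeq start in Cyp2d9, 57 in Cyp2d10, 62 in Cyp2d26, 69 in Cyp2d11 and 117 in Cyp2d40. The RefSeq starts of all 4 members lie inside the deposited gene spans. In Cyp2d9 at least 276 of the 2658 annotated exonic bases lie upstream of the stretch shown. Its FPKM therefore also takes in exons before this promoter.

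The element belongs to the type known as a direct repeat with 1 base between its hexamers, which HNF4A and related nuclear receptors bind, and such an element is described for human CYP2D6. A direct repeat of the AGGNCA hexamer with an A between the copies was found on either strand in 3 of the 4 member promoters, the exception being Cyp2d26, and in 0.0944% of 32851 promoter windows. A second form with AGNACA and AGNGCA hexamers was written from the letters of the member promoters after they were seen. It overlaps the first form, and neither contains the other. Its presence in all 4 was therefore set by that choice, and it was found in 0.0487% of all windows. The box TTTATAAGG was found in all 4 and in 0.280% of all windows. It was searched with the exact letters that stand in the member promoters, so its presence in all 4 was likewise set by that spelling. A STAT5-type TTCNNNGAA was in none of the 4 and in 8.30% of all windows, and an HNF1-type pair of GTTAAT and ATTAAC hexamers with 1 base between them was in none of the 4 and in 0.00913% of all windows. A match describes letters in these windows and is not evidence of binding.

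Under the deposited scaling 4 of the 6 genes fell in HKO liver, none rose, Cyp2d22 did not pass the test, and Cyp2d34 was too low to test. Over all tested features 6.86% fell, 5.95% rose and 12.8% changed in either direction. The median log2 difference was -0.95 over the 5 tested members and -0.06 over all features. In the same 4 members the groups did not overlap, with HKO lower, as in 24.7% of all tested features, and 41.4% of features did not overlap in either direction. Abundant genes fell more often: 26.7% of 472 features at 100 FPKM or above on average fell, against 11.5% of 3056 between 10 and 100 FPKM.

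**Figure D1:**
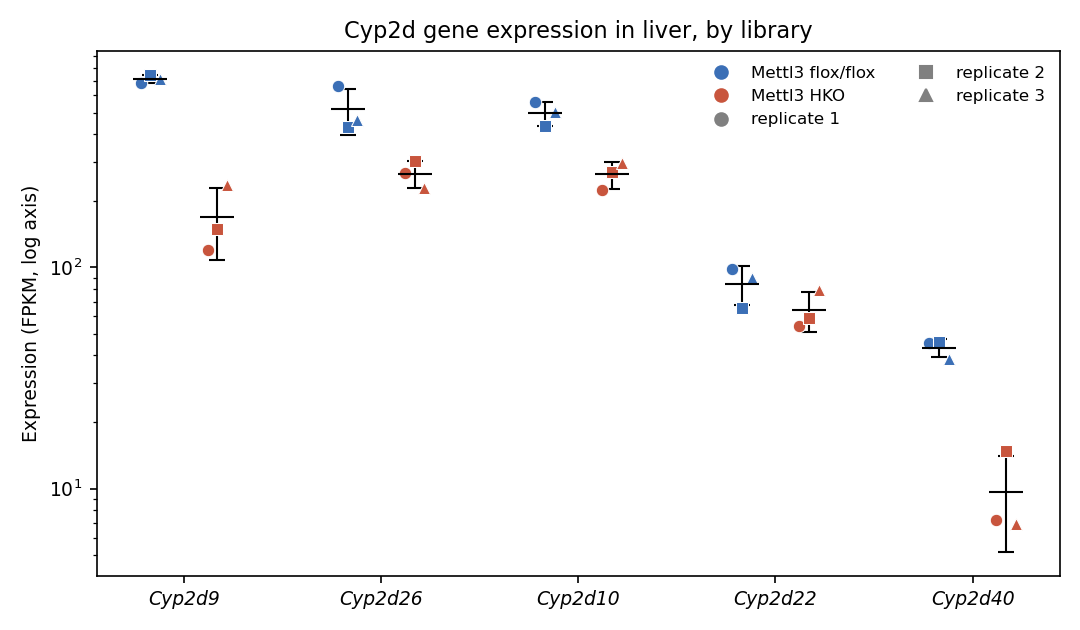
Expression in FPKM on a log axis for the 5 Cyp2d genes with more than a few reads, with 1 point per library (colour for genotype, shape for replicate), the mean as a bar and the SD as error bars (n = 3). All HKO points lie below all flox/flox points for Cyp2d9, Cyp2d26, Cyp2d10 and Cyp2d40, and the groups of Cyp2d22 overlap.

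Cyp2d9 was the most abundant member in flox/flox liver and lost that place in HKO liver. It stood at 684, 744 and 708 FPKM in the controls and at 120.4, 149 and 236 FPKM in the knockouts. The flox/flox libraries lay close together, and HKO replicate 3 was the highest of a wider HKO group. Means were 712 ± 30.3 FPKM and 169 ± 60.2 FPKM (SD, n = 3 each), so HKO stood at 23.7% of the control level. The log2 difference was -2.13 (SE 0.25, 95% interval -2.72 to -1.54; limma adjusted p = 0.0137), and 42 tested features, 0.379%, had a larger fall. Among 122 Cyp genes listed in the table Cyp2d9 ranked 2 by mean FPKM in flox/flox and 11 in HKO liver. Between 6194 and 30371 reads stood behind each value.

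Cyp2d40 fell by as much from a far lower level. It was measured at 45.6, 45.8 and 38.6 FPKM in the controls and at 7.19, 14.7 and 6.93 FPKM in the knockouts. Here HKO replicate 2, not replicate 3, was the highest of the HKO group. Means were 43.3 ± 4.09 FPKM and 9.62 ± 4.44 FPKM (SD, n = 3 each), a level 4.50-fold lower in HKO. The log2 difference was -2.13 (SE 0.27, 95% interval -2.78 to -1.49; limma adjusted p = 0.0162). Each value rested on 251 to 1269 reads.

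Cyp2d26 fell to 51.2% of its control level. The controls held 658, 433 and 466 FPKM, and the knockouts held 267, 302 and 228 FPKM. Flox/flox replicate 1 was well above the other controls, and the nearest libraries of the groups were 302 and 433 FPKM. Means were 519 ± 121 FPKM and 266 ± 37.4 FPKM (SD, n = 3 each), with a log2 difference of -0.95 (SE 0.21, 95% interval -1.44 to -0.46; limma adjusted p = 0.0350). It ranked 4 among Cyp genes in both genotypes.

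Cyp2d10, the closest relative of Cyp2d9 here, fell to 52.8%. It stood at 557, 435 and 504 FPKM in the controls and at 223, 271 and 295 FPKM in the knockouts. The HKO libraries kept the order seen for Cyp2d9, with replicate 3 highest, over a narrower range. Means were 499 ± 61.2 FPKM and 263 ± 37.0 FPKM (SD, n = 3 each), with a log2 difference of -0.92 (SE 0.17, 95% interval -1.32 to -0.52; limma adjusted p = 0.0248). In HKO liver Cyp2d26 and Cyp2d10 were the most abundant members, with mean levels that differed by less than their spread.

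Cyp2d22 did not pass the test. The controls held 97.9, 65.7 and 89.7 FPKM and the knockouts held 54.4, 59.0 and 78.9 FPKM. HKO replicate 3 lay above flox/flox replicate 2, so the groups overlapped. The log2 difference was -0.39 (SE 0.21, 95% interval -0.89 to 0.11; limma adjusted p = 0.234), an interval that spans 0. Cyp2d34 was at or near the limit of detection: 3 reads (0.0704 FPKM) in flox/flox replicate 2, 1 read (0.0197 FPKM) in HKO replicate 2 and 0 reads in the other libraries. A count of 0 allows up to 3 reads per library, counting error only, so no fold is given.

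These calls rest on few libraries. Without flox/flox replicate 3 or without HKO replicate 1 none of the members was called, and 1 was called without HKO replicate 2, when only 30, 32 and 119 features were called over the whole table. In these 3 fits the limma adjusted p of Cyp2d9 was 0.0538, 0.0510 and 0.0521, and that of Cyp2d40 was 0.0547, 0.0588 and 0.0219. Cyp2d26 also lost its call without flox/flox replicate 2 or HKO replicate 3. Whichever library was left out, the log2 difference lay between -2.40 and -1.92 for Cyp2d9 and between -2.46 and -1.96 for Cyp2d40.

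Some markers of liver cell types also differed between the genotypes. Over all tested features 6.86% were lower and 5.95% higher in HKO. The 15 hepatocyte markers summed to 67934 to 106854 FPKM in controls and 41861 to 63378 FPKM in knockouts. Of these 3 were lower and 1 higher, with a median log2 difference of -0.56 (0.15 under quantile normalization, where none was lower). All 15 averaged above 100 FPKM, a level at which 26.7% of features fell with a median of -0.47. Their fall was therefore near that of other abundant features. The 12 markers of Kupffer cells and macrophages summed to 109 to 415 FPKM in controls and 537 to 688 FPKM in knockouts (3 higher, none lower, median 1.34, and all 12 higher under library totals). Of 10 stellate cell markers 5 were higher (50.7 to 68.0 against 84.6 to 115 FPKM summed), as were 1 of 3 tested cholangiocyte markers (23.1 to 34.4 against 32.3 to 62.5 FPKM) and 2 of 3 tested lymphocyte markers (0.606 to 3.80 against 5.49 to 16.5 FPKM). None of 9 endothelial markers was called (30.9 to 89.6 against 69.4 to 92.9 FPKM; 3 higher under hepatocyte marker scaling), and no listed marker of any type was at 0 throughout. These counts moved with single libraries: without flox/flox replicate 3, HKO replicate 1 or HKO replicate 2 no tested marker of any of these cell types was called. No macrophage marker was called without flox/flox replicate 2 or HKO replicate 3 either, nor any hepatocyte marker without HKO replicate 3, and 11 of 12 macrophage markers were called without flox/flox replicate 1. Over the libraries left out in turn 0 to 4 stellate markers were called. In whole tissue fewer cells of a type and less RNA per cell cannot be told apart, and the part of these shifts in the Cyp2d values was not tested.

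Summed over the 6 genes, Cyp2d RNA in HKO liver was at 41.5% of the control level. The sum was 2042, 1724 and 1806 FPKM in the controls and 672, 797 and 845 FPKM in the knockouts. Every HKO library was below every control, which gives p = 0.1 in an exact two-sided permutation test, the smallest that 3 against 3 libraries allow. As a share of all reads, which does not use the deposited scaling, the members took 0.349%, 0.354% and 0.361% in the controls and 0.160%, 0.180% and 0.229% in the knockouts (exact permutation p = 0.1). The controls were near one another on this scale, and HKO replicate 3 was the closest to them.

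The make-up of the pool differed as well as its size. Cyp2d9 made up 33.5%, 43.2% and 39.2% of the summed Cyp2d FPKM in the controls and 17.9%, 18.7% and 27.9% in the knockouts. Its mean share was 38.6 ± 4.87% in flox/flox and 21.5 ± 5.57% in HKO (SD, n = 3 each; exact permutation p = 0.1). Cyp2d10 went from 25.2% to 27.9% in controls to 33.2% to 35.0% in knockouts, and Cyp2d22 from 3.81% to 4.97% to 7.41% to 9.34%. Shares add up to 100%, so a smaller part of one gene enlarges the others: with Cyp2d9 left out of the sum, the difference of Cyp2d10 turned from 7.26 to -0.156 percentage points and that of Cyp2d26 from 7.18 to -0.848. Cyp2d26 overlapped, at 25.1% to 32.2% and 26.9% to 39.8% (exact permutation p = 0.2). Cyp2d40 was a minor part in both, at 2.14% to 2.66% in controls and 0.820% to 1.85% in knockouts.

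**Figure D2:**
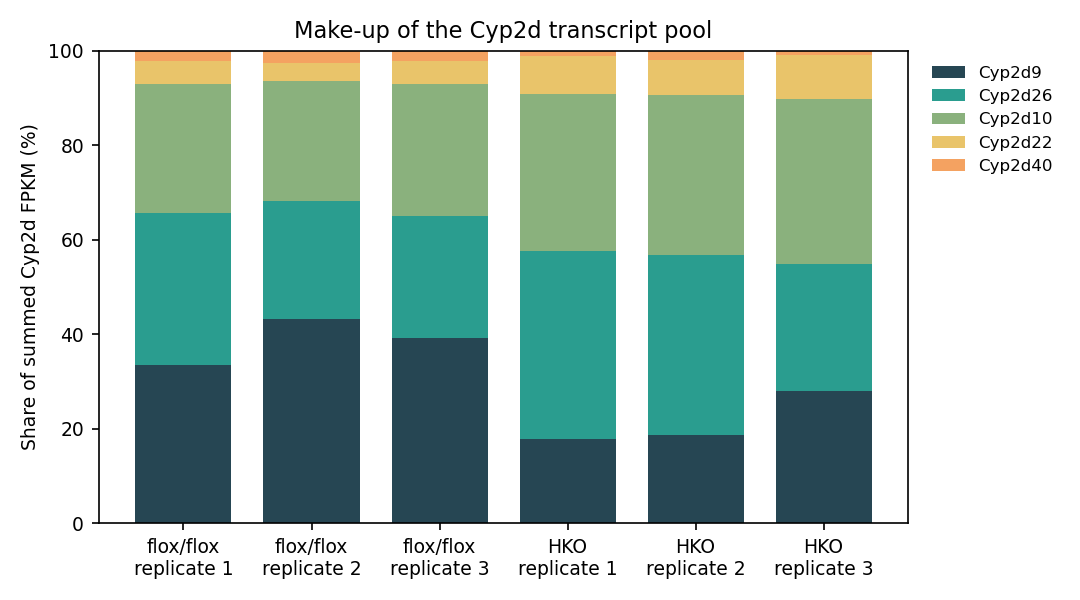
Share of each Cyp2d gene in the summed Cyp2d FPKM of a library, in percent, 1 stacked bar per library. The bottom segment, Cyp2d9, is 33.5% to 43.2% of the bar in the 3 flox/flox libraries and 17.9% to 27.9% in the 3 HKO libraries.

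Ratios of members within a library do not move with the scaling between libraries, and they were compared for the 10 pairs of the 5 expressed members. The log2 ratio of Cyp2d9 to Cyp2d10 was 0.30, 0.77 and 0.49 in the controls and -0.89, -0.86 and -0.32 in the knockouts. Cyp2d9 was therefore above Cyp2d10 in every control and below it in every HKO library. Against Cyp2d40, the ratio of Cyp2d9 overlapped between the groups and its mean differed by 0.12 (exact permutation p = 0.8), with HKO libraries spread from 3.34 to 5.09. Cyp2d10 to Cyp2d26 likewise overlapped and differed by 0.03 (exact permutation p = 1). The other 8 pairs did not overlap between genotypes, each with an exact permutation p = 0.1, or 0.125 when adjusted over the 10 pairs. All 10 pairs are built from the same 5 genes, so they are not independent of one another. Ratios of other genes were not compared. Relative to each other expressed member, Cyp2d22 was higher in every HKO library than in every control: its log2 ratio to Cyp2d26 and to Cyp2d40 was higher in HKO by 0.55 and 1.86, and the ratios of Cyp2d10 and Cyp2d9 to it differed by -0.53 and -1.74.

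Sequence shared between members limits how far neighbouring values are separate. Of the 50-base stretches in the annotated transcripts, 35.8% in Cyp2d10 and 21.8% in Cyp2d9 also occur in transcripts of another gene, against 14.5% in Cyp2d40, 9.49% in Cyp2d26, 7.55% in Cyp2d34 and 4.13% in Cyp2d22. At 150 bases the shares were 4.55% in Cyp2d10, 1.71% in Cyp2d9 and 0 in the others. The main transcripts of Cyp2d9 and Cyp2d10 were 92.1% identical over aligned bases, the highest of the 15 pairs, and the lowest was 81.6% for Cyp2d22 and Cyp2d26. In Cyp2d9, 246 exonic bases overlap Gm46501 or Gm27622 on the same strand, and in Cyp2d10, 60 overlap Gm27331. The sources used here do not say how reads shared by several genes were counted, so values of Cyp2d9 and Cyp2d10 are uncertain to that extent.

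No other Cyp2d locus passed the test. Of 12 listed, 4 are in the table, 3 were tested and none was called. The pseudogene Cyp2d37-ps stood at 33.5, 104 and 57.1 FPKM in the controls and at 28.2, 36.3 and 22.4 FPKM in the knockouts (log2 difference -1.02, limma adjusted p = 0.130), with groups that overlapped. Cyp2d11 and Cyp2d12 are added with their values already seen. Cyp2d11 was at 0.979 to 1.36 FPKM in controls and 0.878 to 1.21 FPKM in knockouts (log2 difference -0.11, limma adjusted p = 0.611). Cyp2d12 was below the test's minimum of a mean of 1 FPKM, with 2.89 FPKM in HKO replicate 3 and 0.0839 to 0.254 FPKM in the other 5 libraries.

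Most genes around the cluster did not pass the test. Of 21 listed neighbours on chromosome 15, 13 were tested. Of the 13 tested, 2 (15.4%) fell and none rose, against 6.86% and 5.95% of all tested features. The median log2 difference of the 13 was -0.06 (0.26 under scaling by library totals). Ndufa6, a subunit of respiratory complex I on the Cyp2d22 side of the cluster, was at 66.9% of the control mean (log2 difference -0.57, limma adjusted p = 0.0354) and Cyb5r3, an NADH-cytochrome b5 reductase, was at 65.3% (-0.60, limma adjusted p = 0.0393). Ndufa6 was called under 2 of 6 scalings and Cyb5r3 under 1. On the other side Tcf20, a transcriptional coregulator added with its values already seen, was at 4.47 to 4.94 FPKM in controls and 4.44 to 5.52 FPKM in knockouts. Smdt1, also added with its values seen, was the most abundant tested neighbour after Cyb5r3 and Ndufa6. It differed by -0.41 and was not called (limma adjusted p = 0.114). Most tested neighbours averaged under 10 FPKM, far below the main Cyp2d genes. Over all tested features the median was 0.01 between 1 and 10 FPKM and -0.47 at 100 FPKM or above.

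Of 10 electron donors and microsomal partners of P450 enzymes, 4 (40%) fell and none rose under the deposited scaling, with a median log2 difference of -0.53. Over all tested features 6.86% fell and 5.95% rose, and 26.7% of those at 100 FPKM or above on average fell. Under scaling by library totals none fell and 1 rose. Por, the reductase that passes electrons to the Cyp2d enzymes, was at 317, 246 and 207 FPKM in the controls and at 154, 151 and 114 FPKM in the knockouts. The groups did not overlap (log2 difference -0.86, SE 0.21; limma adjusted p = 0.0430). Pgrmc1, a heme-binding protein that associates with P450 enzymes, was at 64.3% of control (-0.64, limma adjusted p = 0.0317), and Fdx1, the ferredoxin of mitochondrial P450 enzymes, differed by -0.62 (limma adjusted p = 0.0484). Por, Fdx1 and Cyb5r3 were each called under 1 of 6 scalings and Pgrmc1 under 2, with a difference of 0.05 at the other extreme, whereas Cyp2d9 and Cyp2d40 were called under all 6.

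Of 22 tested transcription factors that act on liver Cyp genes 2 (9.09%) fell and none rose, against 6.86% and 5.95% of all tested features. Their median log2 difference was -0.31 under the deposited scaling and 0.09 under scaling by library totals, where 1 fell and 3 rose. Nr1i3, which encodes the xenobiotic sensor CAR, was at 16.7, 12.4 and 7.84 FPKM in the controls and at 2.21, 3.79 and 3.81 FPKM in the knockouts. This difference of -1.61 on the log2 scale (SE 0.28; limma adjusted p = 0.0233) was called under all 6 scalings. Nr1h4, the bile acid receptor FXR, differed by -0.80 (limma adjusted p = 0.0444) and was called under 1 of them. Hnf4a, named here after its values were seen because its binding type is in the promoters, was at 221, 164 and 206 FPKM in the controls and at 129, 140 and 134 FPKM in the knockouts, and did not pass the test (-0.54, limma adjusted p = 0.0602).

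The growth hormone signal sets the sex bias of many mouse liver genes through STAT5B. In that list 2 of 10 tested genes (20%) fell and none rose, against 6.86% and 5.95% of all tested features. The list's median was -0.18, and 0.18 under library totals, where 1 fell and 1 rose. Igf1, the main hormone released by liver under growth hormone, differed by -1.05 (limma adjusted p = 0.0200; called under 5 of 6 scalings) and Ghr, which encodes the growth hormone receptor, by -0.68 (limma adjusted p = 0.0385; called under 2). Among features at 100 FPKM or above on average 26.7% fell. Of 21 male-biased liver genes outside the subfamily 10 (47.6%) fell and none rose, with a median of -1.05. The members past the test with the most change were Mup11 (-7.74), Mup7 (-7.30) and Mup1 (-4.58), which encode major urinary proteins and share near-identical copies. HKO replicate 3 was the highest HKO library for Mup7, at 327 FPKM against 15.4 and 21.6 FPKM, as it was for Cyp2d9. No list of female-biased genes was compared, so a change in sex bias was not tested.

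Among 28 tested genes of the Cyp1, Cyp2 and Cyp3 families outside Cyp2d 7 (25%) fell and none rose. Over all tested features 6.86% fell and 5.95% rose, and 26.7% of those at 100 FPKM or above on average fell. The median log2 difference of these Cyp genes was -0.91, close to the -0.95 of the Cyp2d members. Among the genes past the test the most changed were Cyp2c40 (-3.59, limma adjusted p = 0.0306), Cyp2c54 (-3.07, limma adjusted p = 0.0246) and Cyp2c37 (-2.24, limma adjusted p = 0.0409), members of a subfamily that oxidizes arachidonic acid among other substrates. Their controls were widely spread, with flox/flox replicate 1 far the highest for each gene. The controls held 90.8, 11.9 and 14.9 FPKM for Cyp2c40 and 362, 80.7 and 163 FPKM for Cyp2c54. For Cyp2c37 they held 285, 60.4 and 135 FPKM. Every HKO library was still below every control for each of these genes. No test set one subfamily against another. Under library totals 7 fell and 3 rose. With HKO replicate 1 or flox/flox replicate 3 left out, 1 of these Cyp genes, 1 male-biased gene and none of the electron donors, transcription factors or growth hormone genes passed the test. Over all 6 libraries left out in turn, 1 to 8 of the Cyp genes and 1 to 12 of the male-biased genes were called lower.

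**Figure D3:**
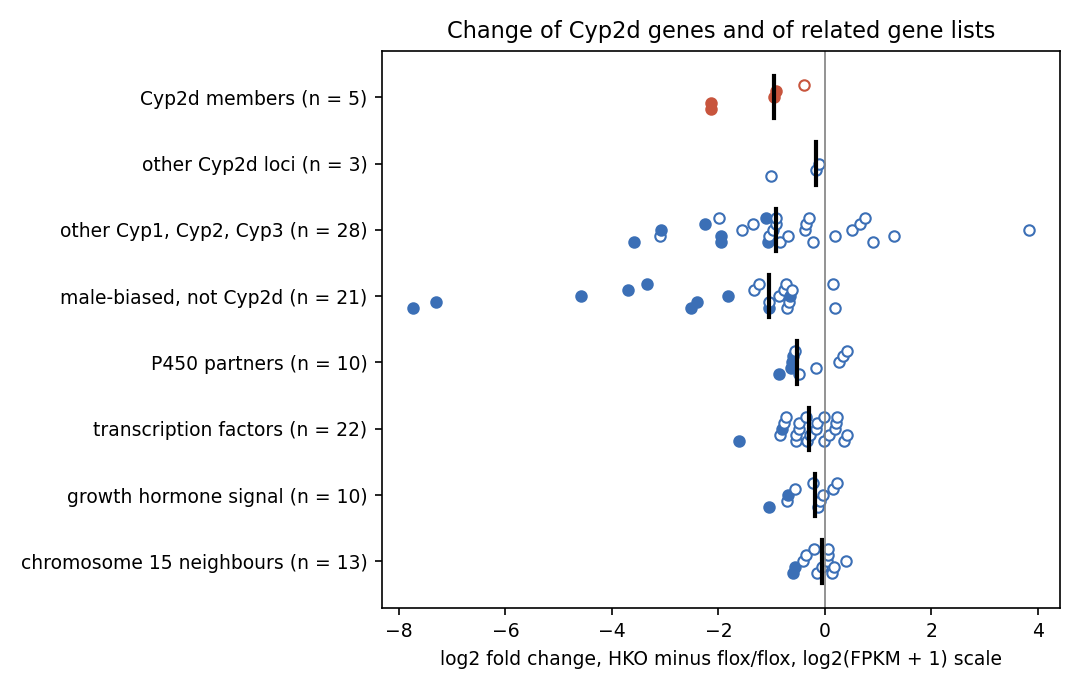
Log2 difference (HKO minus flox/flox, log2(FPKM + 1) scale) of the tested genes of each list, 1 point per gene, filled where called and open where not, with the list's median as a black bar, all under the deposited scaling. The Cyp2d members (median -0.95) lie near the other Cyp1, Cyp2 and Cyp3 genes (-0.91), and the chromosome 15 neighbours have a median of -0.06. The lists are not matched for expression level.

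The genes whose levels followed the summed Cyp2d level most closely over the 6 libraries, of 9559 compared, were Mup3, Cd1d1, Pcp4l1 and Ak3, with Pearson r of 0.997 to 0.998, and Acbd5 with r = 0.994. Mup3, a major urinary protein gene, went from 8087 to 12109 FPKM in controls to 906 to 1535 FPKM in knockouts. Cd1d1, a lipid antigen-presenting molecule, went from 88.9 to 103 FPKM to 46.5 to 51.7 FPKM. The points share the 2 genotypes and the scaling, so r describes these 6 libraries only.

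Under other scalings of the same libraries Cyp2d9 and Cyp2d40 kept their calls and the other members did not all do so. With libraries set to their total reads, the median feature moved to 0.26 on the log2 scale, and the differences were -1.73 for Cyp2d9, -1.76 for Cyp2d40, -0.54 for Cyp2d26, -0.52 for Cyp2d10 and 0.01 for Cyp2d22. Relative to that shifted median all 5 were lower in HKO, a comparison that was not tested. That median covers features of every level. Under the deposited scaling the median was -0.47 at 100 FPKM or above and -0.20 between 10 and 100 FPKM, where Cyp2d22 lies. Under quantile normalization Cyp2d22 differed by -0.04 and the median feature by -0.03. With the geometric mean of the hepatocyte markers as the scale, a choice made after the data were seen, the median feature moved to 0.33 and the differences were -1.64, -1.67, -0.46, -0.43 and 0.10 in the same order. Cyp2d26 was called under 4 of 6 scalings and Cyp2d10 under 2, so that quantile normalization and hepatocyte scaling left 2 called members. The deposited scaling is itself of the median-of-ratios kind. The common sum and library totals were also near repeats, with -0.52 for Cyp2d10 under both. Counts out of 6 scalings are therefore not counts of separate checks. The direction of Cyp2d22 turned under the common sum, library totals and hepatocyte scalings.

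**Figure D4:**
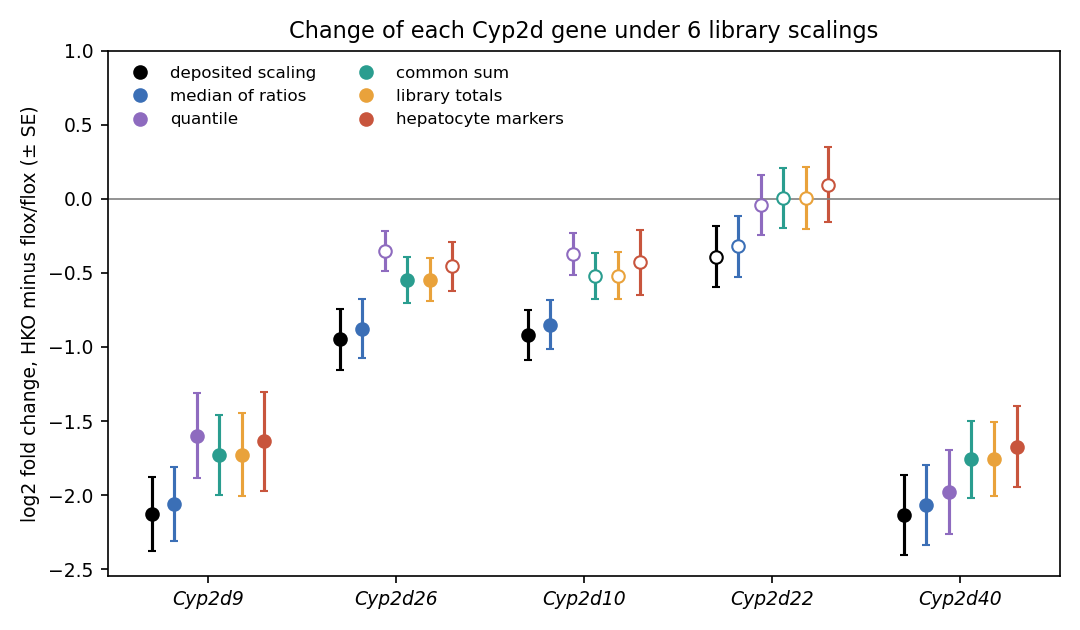
Log2 difference of each Cyp2d gene (HKO minus flox/flox, with SE) under 6 ways of scaling the libraries, filled where called at an adjusted p under 0.05 and open where not. Cyp2d9 (-2.13 to -1.60) and Cyp2d40 (-2.13 to -1.67) are filled under all 6, and Cyp2d22 crosses 0.

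The Mettl3 complex methylates adenosines mainly within a short consensus, of which GGACT is the best-known form. The main transcripts of Cyp2d10, Cyp2d9 and Cyp2d40 held 3.03, 2.92 and 2.58 GGACT per kb, and those of Cyp2d22, Cyp2d26 and Cyp2d34 held 1.81, 1.76 and 1.20 per kb. Over 9683 genes the median was 1.05 per kb with quartiles at 0.642 and 1.53, so 5 of the 6 members were above the upper quartile. These rates rest on 2 to 5 matches per transcript. The main transcripts were 81.6% to 92.1% identical over aligned bases, so the members are not independent of one another. The comparison genes were not matched for transcript length, and no test was made. Methylation was not measured in these libraries, and a match to GGACT is not a methylated site.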

How the data were processed

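Total RNA of whole liver was poly(A) selected and sequenced as 6 libraries, per the labels' protocols. According to the submitters' processing notes, reads were aligned with HISAT2 2.0.5 to GRCm38.p6 and assigned to genes by featureCounts 1.5.0-p3, with DESeq2 1.16.1 also named. The authors deposited FPKM per gene. Multiplied by gene length, 100% of the values were whole multiples of 1 step per library within 0.01 read, which returned the reads, and the FPKM denominators matched median-of-ratios size factors. Replicates differed by more than counting noise (chi-square divided by its degrees of freedom, 17.3 to 95.8 per pair).

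The test was limma 3.58.1 (R 4.3.3) on log2(FPKM + 1), over 11086 features averaging 1 FPKM or more, with genotype as the only term, a variance trend, two-sided p-values and Benjamini-Hochberg adjustment over all of them. The fit was also run on simulated counts with the same relative spread set for every gene. The libraries here need not follow that spread, so the run does not check these calls. Sums, shares and ratios were compared by exact permutation tests. Tables and permutations used scipy 1.17.1, pandas 2.3.3 and numpy 2.4.6 under Python 3.11.15, and transcripts came from a GENCODE annotation of GRCm38. Whole reads rebuilt from FPKM were also tested with voom, and 1574 features were called against 1421. The rule named all 6 members, up to 3 called genes per list with the largest change or else its most abundant gene, Mettl3, and the 5 genes most like the summed level. The members and lists were chosen with earlier results of these data known. Same-numbered libraries did not deviate together (r = -0.00261, -0.0996 and -0.0673), so they were not treated as pairs. The 95% intervals of differences come from the limma fit and cover the spread among libraries, and the limit set by a count of 0 covers counting error only.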

Additional observations from a re-analysis of the deposited data

How the results depend on the processing

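Of 21 alternatives (pseudocount, filter, scaling, variance model, voom, replicate block, 1 library left out, protein-coding features only), Cyp2d9 kept its call in 18, Cyp2d40 in 19, and Cyp2d10 and Cyp2d26 in 12 each, all with HKO lower. With no filter on low values 2 members were called, as under quantile normalization, hepatocyte marker scaling and the replicate block. The samples share only a number, and under the replicate block 199 features were called in place of 1421. Without the filter Cyp2d10 was at -0.92 (limma adjusted p = 0.0571) and Cyp2d26 at -0.95 (adjusted p = 0.0745), and with the replicate block at -0.92 (adjusted p = 0.0739) and -0.95 (adjusted p = 0.0762). Quantile normalization gave -0.37 for Cyp2d10 and -0.35 for Cyp2d26, hepatocyte marker scaling -0.43 and -0.46, and for Cyp2d10 the common sum and library totals both gave -0.52. Cyp2d22 turned to 0.0057 under the common sum, 0.0083 under library totals and 0.10 under hepatocyte marker scaling. Leaving out 1 library gave 0 to 4 called members, -2.40 to -1.92 for Cyp2d9, -2.46 to -1.96 for Cyp2d40, -1.02 to -0.81 for Cyp2d10 and -1.07 to -0.76 for Cyp2d26, and the adjusted p of Cyp2d26 lay between 0.0407 and 0.0992. The log2 ratio of the summed level, -1.27, was -0.86 under the common sum and library totals, -0.90 as a share of reads, -0.93 without Cyp2d9 and -0.75 under hepatocyte marker scaling. Among shares of the pool, without Cyp2d9 the difference in percentage points was -0.156 for Cyp2d10 and -0.848 for Cyp2d26, against 7.26 and 7.18 with it, and -2.28 for Cyp2d40 against -1.10. Counted in reads the share of Cyp2d22 rose by 7.25 points in place of 3.76. Over all features 761 fell and 660 rose as deposited, against 213 and 2132 under library totals and 118 and 1393 under hepatocyte marker scaling. The cause of these differences was not tested. At this depth Cyp2d34 could not be measured.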

Other observations

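HKO replicate 3 differed from the other HKO libraries at several genes of related lists, all picked after their values were seen. Cyp2a4, a steroid hydroxylase, was at 2.32 FPKM there and at 39.2 and 66.0 FPKM in HKO replicates 1 and 2, against 0.187 to 0.662 FPKM in flox/flox. Hsd3b5, a male-biased steroid dehydrogenase, was at 73.6 FPKM there and at 16.9 and 38.6 FPKM in the other two. Alb was at 9905 FPKM there and at 24763 and 27384 FPKM in the other two. With Cyp2d9 and Mup7, Hsd3b5 was nearest to the controls in this library. No label sets the library apart.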
